A study of Mus musculus with 8 samples.

Results

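The 9 genes described here encode leukocyte adhesion and homing molecules, and they were picked by symbol out of the 54752 genes in the count tables. Itgam, Itgb2, Itgal, Itga4 and Selplg act on the leukocyte side, and Icam1, Vcam1, Sele and Selp on the endothelial side. RNA of the right cerebral cortex was sequenced in 4 sham mice and 4 mice with bilateral carotid artery stenosis (BCAS), in which a microcoil around each common carotid artery lowers the blood flow to the brain. All were adult male wild-type C57BL/6 mice (C57BL/6 J in the study's methods) killed 3 weeks after surgery, with 1 mouse per library, and the sham mice went through the same surgery without coils. The right cortex lies on the side of the narrower coil, so the values are those of the more restricted hemisphere.

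Leukocytes leave the blood in steps. Selectins on the vessel wall (E-selectin from Sele, P-selectin from Selp) catch PSGL-1, the product of Selplg, so that the cell rolls, and activated integrins then hold it by binding ICAM-1 and VCAM-1. Integrins are pairs of an alpha and a beta chain: Itgal with Itgb2 forms LFA-1 and Itgam with Itgb2 forms Mac-1, both receptors for ICAM-1, and Itga4 with Itgb1 forms VLA-4, the receptor for VCAM-1. In the brain, microglia carry Mac-1 and PSGL-1 themselves, resting cortical endothelium makes little of the selectins, and astrocytes can make VCAM-1, so in whole cortex several of these genes can come from more than 1 cell type.

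The libraries held between 16759364 and 21794435 counts assigned to genes. A count of 0 allows up to 3 counts, which is 0.138 to 0.179 CPM (counts scaled to library size) depending on the library. Counting error is all that this limit covers. The pan-neuronal markers, which mark brain tissue but no particular region of it, summed to between 8463 and 9889 CPM in sham mice and between 3274 and 7176 CPM in BCAS mice. BCAS mouse 1 stood at the top and BCAS mouse 2 at the bottom of most of the differences below, and values without mouse 1 are given for the members and for the genes it moved most. Of the 17136 genes that passed the filter on low counts, 1877 were called higher and 220 lower in BCAS mice, and the median log2 fold change was -0.01. A gene was called when its adjusted p in edgeR's quasi-likelihood test, corrected over all tested genes by the Benjamini-Hochberg method, was under 0.05 and its log2 fold change was beyond 1 in either direction.

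The promoter sequences of Icam1, Sele and Itgam are shown because these members, a firm adhesion ligand, an endothelial selectin and a leukocyte integrin, held at least 1 of the 5 short motifs searched. Each sequence is the 250 bases before the transcription start of the RefSeq annotation on GRCm38.p6, and each lies on the plus strand. Capitals mark the motif matches.
Icam1, chr9:21015690-21015939: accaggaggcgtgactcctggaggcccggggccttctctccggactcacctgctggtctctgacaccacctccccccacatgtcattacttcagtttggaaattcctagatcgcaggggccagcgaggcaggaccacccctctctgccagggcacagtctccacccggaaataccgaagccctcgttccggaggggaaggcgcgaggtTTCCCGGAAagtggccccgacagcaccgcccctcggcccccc
Sele, chr1:164047984-164048233: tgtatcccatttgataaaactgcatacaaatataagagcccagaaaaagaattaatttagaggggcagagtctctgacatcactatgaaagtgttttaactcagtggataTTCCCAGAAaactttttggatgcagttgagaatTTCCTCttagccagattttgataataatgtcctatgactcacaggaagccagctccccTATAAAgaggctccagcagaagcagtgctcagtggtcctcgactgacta
Itgam, chr7:128062390-128062639: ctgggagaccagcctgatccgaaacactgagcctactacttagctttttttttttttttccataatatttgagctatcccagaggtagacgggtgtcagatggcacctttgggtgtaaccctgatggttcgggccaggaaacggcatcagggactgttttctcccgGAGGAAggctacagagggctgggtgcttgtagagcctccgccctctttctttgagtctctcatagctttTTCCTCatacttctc
The capitals in the Icam1 sequence, at positions -42 to -34 from the start site, match the GAS motif TTCNNNGAA, the letters to which STAT factors bind. In the Sele sequence the GAS motif stands at -140 to -132, the PU.1 core GAGGAA on the minus strand at -107 to -102 and the TATA box TATAAA at -49 to -44. The Itgam sequence has the PU.1 core, the motif of a factor of myeloid cells, at -84 to -79 and on the minus strand at -15 to -10. Both strands were searched, and the motifs do not overlap each other in these windows. Among 32851 promoter windows of the same length, GAS was present in 7.02%, the PU.1 core in 23.3% and the TATA box in 12.4%. The kappaB consensus GGGRNWYYCC (3.9% of all windows) and the ISRE motif GAAANNGAAA (2.98%) had no match in the windows of the 5 members with an entry. Those members are these 3, Itga4 and Selp. Only full matches to the letters were searched, so sites that depart from them would be missed. A match describes letters only.

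On the leukocyte side, the beta-2 integrin genes rose most. Itgb2 (ENSMUSG00000000290.13, chr10:77530252-77565708, plus strand, mm10), the beta chain common to LFA-1 and Mac-1, had 122, 137, 105 and 102 counts in sham mice 1 to 4, against 6325, 1154, 2676 and 2090 counts in BCAS mice 1 to 4. These were 6.91 ± 1.17 CPM (SD, n = 4) in sham and 149 ± 93.0 CPM in BCAS mice, with the lowest BCAS mouse at 59.4 CPM and the highest sham mouse at 8.55 CPM. The log2 fold change was 4.43 (SE 0.45, edgeR adjusted p = 0.00146), a 21.6-fold higher level. The groups were far apart, although the BCAS mice differed 4.68-fold among themselves. Since whole cortex was sequenced, more cells of a type and more RNA per cell cannot be told apart for this or any other gene below.

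Itgam (ENSMUSG00000030786.18, chr7:128062640-128118491, plus strand), the alpha chain of Mac-1, had 101, 116, 100 and 111 counts in sham mice and 2395, 474, 932 and 959 counts in BCAS mice 1 to 4. The level went from 6.35 ± 0.748 to 58.1 ± 33.9 CPM (SD, n = 4 each), a log2 fold change of 3.19 (SE 0.40, edgeR adjusted p = 0.00203). The sham mice were within 5.72 and 7.24 CPM, and every BCAS mouse was above them. The annotation places a second gene, Gm49368, on the same strand over 68.7% of the exon bases of Itgam. Read pairs there fit both genes and were assigned to neither, so the count of Itgam comes from the remaining bases. Gm49368 itself had at most 1 count in a sham and 4 counts in a BCAS library.

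Itgal (ENSMUSG00000030830.18, chr7:127296260-127335138, plus strand), the alpha chain of LFA-1, which lymphocytes carry in particular, was the scarcest integrin chain among the members. It had 39, 27, 28 and 11 counts in sham mice 1 to 4 and 960, 59, 446 and 128 counts in BCAS mice 1 to 4. From 1.54 ± 0.646 CPM it reached 19.1 ± 17.9 CPM (SD, n = 4 each), with a log2 fold change of 3.62 (SE 0.80, edgeR adjusted p = 0.0124). The groups did not overlap, but BCAS mouse 2, at 3.04 CPM, was close to the highest sham mouse, at 2.22 CPM, while BCAS mouse 1 reached 42.2 CPM. Without BCAS mouse 1 the log2 fold change was 2.89, and the call was lost when limma-voom replaced edgeR (log2 fold change 3.12, adjusted p = 0.0884).

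Selplg (ENSMUSG00000048163.13, chr5:113818536-113832644, minus strand), which encodes PSGL-1, the ligand of the selectins, had 564, 464, 474 and 535 counts in sham mice and 5576, 1560, 2213 and 2527 counts in BCAS mice 1 to 4. This was 30.1 ± 2.50 CPM in sham and 145.7 ± 70.5 CPM in BCAS mice (SD, n = 4 each), 4.84-fold higher, with a log2 fold change of 2.28 (SE 0.30, edgeR adjusted p = 0.00237). The lowest BCAS mouse, at 80.4 CPM, was well above the highest sham mouse, at 32.3 CPM.

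Itga4 (ENSMUSG00000027009.18, chr2:79255426-79333123, plus strand), the alpha chain of VLA-4, was the member on this side that did not pass the test. It had 357, 366, 684 and 242 counts in sham mice 1 to 4 and 1362, 697, 940 and 304 counts in BCAS mice 1 to 4. The means were 24.2 ± 10.5 and 40.8 ± 18.9 CPM (SD, n = 4 each), and the log2 fold change of 0.75 (SE 0.40) had an edgeR adjusted p of 0.171. The groups overlapped: sham mouse 3, at 39.1 CPM, was above BCAS mice 2 and 4, at 35.9 and 16.6 CPM. No choice of processing or left-out mouse brought its adjusted p under 0.05, the lowest being 0.0592 without BCAS mouse 4.

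On the endothelial side, the ligands of the beta-2 integrins and of VLA-4 both rose. Icam1 (ENSMUSG00000037405.8, chr9:21015985-21028817, plus strand), the ligand of LFA-1 and Mac-1, had 76, 65, 44 and 40 counts in sham mice 1 to 4 and 1114, 172, 694 and 430 counts in BCAS mice 1 to 4. It went from 3.33 ± 1.00 to 29.7 ± 17.4 CPM (SD, n = 4 each), 8.92-fold higher, with a log2 fold change of 3.16 (SE 0.49, edgeR adjusted p = 0.00375). All BCAS mice were above the sham mice, the nearest pair being 8.86 and 4.32 CPM. On the opposite strand Gm47079 covers 11.7% of the exon bases of Icam1, and counting did not use strand, but that gene had only 12 to 52 counts in BCAS and 22 to 44 counts in sham libraries.

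Vcam1 (ENSMUSG00000027962.14, chr3:116109949-116129688, minus strand), the ligand of VLA-4, had 533, 588, 602 and 579 counts in sham mice and 2807, 825, 1715 and 1441 counts in BCAS mice 1 to 4. The level was 34.1 ± 2.71 CPM in sham and 84.3 ± 33.6 CPM in BCAS mice (SD, n = 4 each), a log2 fold change of 1.31 (SE 0.27, edgeR adjusted p = 0.00973). Sham mice were within 30.3 and 36.7 CPM, and BCAS mouse 2 was just above them at 42.5 CPM. A fold change so near the threshold did not pass when edgeR tested against a log2 fold change of 1 (adjusted p = 0.543).

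The selectins were barely present in sham cortex and stayed under the filter on low counts. Selp (ENSMUSG00000026580.16, chr1:164115264-164150026, plus strand), which encodes the P-selectin that endothelium and platelets store in granules, had 1, 1, 3 and 0 counts in sham mice 1 to 4 and 46, 4, 25 and 17 counts in BCAS mice 1 to 4. Every BCAS mouse was above every sham mouse, with 0.206 to 2.02 CPM against 0 to 0.172 CPM. The nearest pair, 4 counts in BCAS mouse 2 and 3 counts in sham mouse 3, lies within counting error. Pooled over the mice, 92 against 5 counts gave a 16.8-fold ratio of shares (exact 95% interval 6.92 to 52.8, counting error only). With no filter, the edgeR adjusted p of Selp was 0.00798. Sele (ENSMUSG00000026582.6, chr1:164048234-164057677, plus strand), which encodes E-selectin, had 1, 0, 1 and 3 counts in sham mice and 26, 2, 14 and 0 counts in BCAS mice 1 to 4. The pooled ratio of 42 to 5 counts was 7.65 (exact 95% interval 3.03 to 24.8), but it rested on BCAS mice 1 and 3, the groups overlapped, and with no filter the edgeR adjusted p was 0.141.

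**Figure D1:**
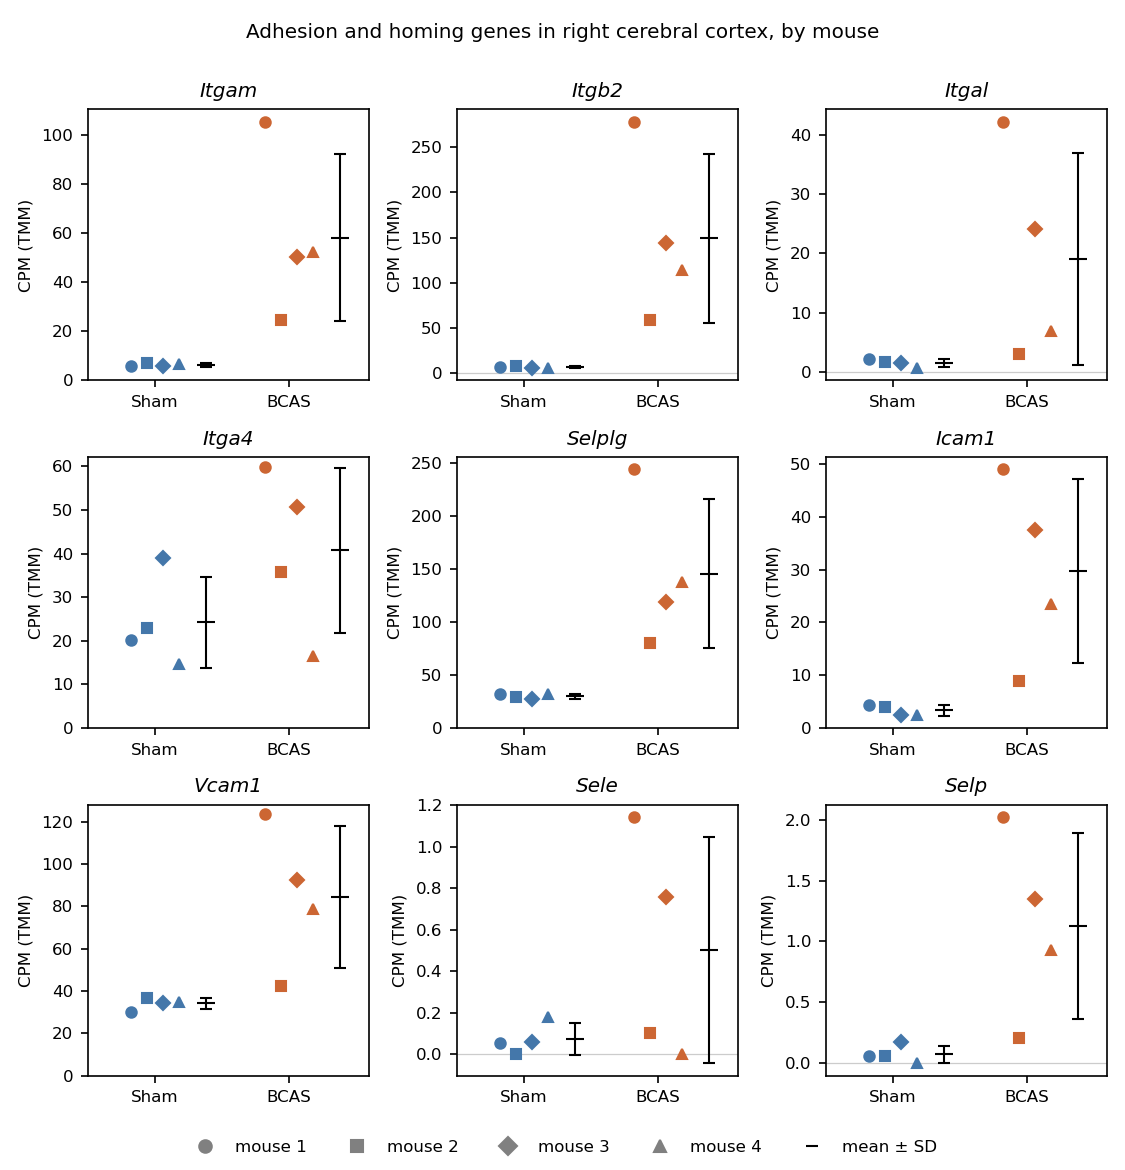
CPM after TMM scaling of the 9 genes in each of the 4 sham and 4 BCAS mice, with a linear axis of its own for each gene. Points are mice and the bars beside them give the group mean ± SD. Itga4 and Sele are the genes whose groups overlap, and BCAS mouse 1 is the highest point in all 9 panels.

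Counted together, 6 of the 7 tested members were called higher and 0 were called lower, where 11% and 1.28% of all tested genes were. In 6 of the 7, each BCAS mouse was above each sham mouse, which held for 18.5% of all tested genes. The median log2 fold change of the 7 tested members was 3.16. It was 3.19 for the 5 genes of the leukocyte side and 2.23 for Icam1 and Vcam1. Without BCAS mouse 1, which was the highest for all 9 genes, the log2 fold changes were 2.75 for Itgam, 3.95 for Itgb2, 0.51 for Itga4, 1.92 for Selplg, 2.82 for Icam1 and 1.08 for Vcam1, and the same 6 genes were called.

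Levels of different genes can be compared only per length, here in TPM, which divides the counts by exon length before scaling. In sham cortex the order of the mean levels was Selplg at 29.7 TPM, Vcam1 at 16.2, Itgb2 at 9.53, Itga4 at 7.35, Itgam at 5.33, Icam1 at 3.2, Itgal at 0.986, Sele at 0.108 and Selp at 0.0704 TPM. The ranges over the 4 sham mice overlapped between Itgb2 and Itga4, between Itga4 and Itgam, and between Sele and Selp, and the other neighbours in this order were apart. In BCAS mice Itgb2 came first, at a mean of 201 TPM (84.1 to 366), followed by Selplg at 141 TPM (81.3 to 230), Itgam at 47.7 TPM, Vcam1 at 39.4 TPM and Icam1 at 28.1 TPM. Itga4 at 12.1 TPM and Itgal at 11.9 TPM came next, and Selp at 1.05 TPM and Sele at 0.7 TPM remained lowest. The level of Itgam is understated, because its length includes the bases shared with Gm49368. Per unshared exon base, a calculation added after the overlap was seen, Itgam stood at 17 TPM in sham and 153 TPM in BCAS mice, between the means of Selplg and Vcam1 in sham mice and between those of Itgb2 and Selplg in BCAS mice. Its fold change does not depend on the length.

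Vcam1 was thus 2.35 ± 0.49 log2 units above Icam1 per length in sham cortex (SD, n = 4) and 0.63 ± 0.45 above it in BCAS cortex, and the ratio was lower in every BCAS mouse than in every sham mouse (exact permutation p = 0.0286, adjusted p = 0.0762 over the 8 ratios compared). Of the 70 arrangements of 4 against 4 libraries none can give an exact p below 0.0286, so no ratio could pass unless several did. Icam2, a ligand of LFA-1 that endothelium makes at rest, had a log2 fold change of 0.67 (edgeR adjusted p = 0.187), and its ratio to Icam1 went from 0.57 ± 0.55 to -1.80 ± 0.59 log2 units (exact permutation p = 0.0286, adjusted p = 0.0762). Icam2 was therefore the more abundant of the pair in 3 of 4 sham mice, and Icam1 was in 4 of 4 BCAS mice.

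The ratios between the chains of the beta-2 integrins differed in 1 case without overlap, though none of them passed the correction. The log2 ratio of Itgam to Itgb2 per length was -0.83 ± 0.18 in sham and -2.05 ± 0.17 in BCAS mice, a difference of -1.22 without overlap (exact permutation p = 0.0286, adjusted p = 0.0762). These values use the full length of Itgam. Per exon base that no other gene covers, a calculation added after the overlaps were seen, the ratio was 0.84 ± 0.18 in sham and -0.37 ± 0.17 in BCAS mice (SD, n = 4 each), so that Itgam was above Itgb2 in 4 of 4 sham mice and in 0 of 4 BCAS mice, with the same difference. The ratio of Itgal to Itgb2 differed by -1.17 log2 units with overlap between the groups (exact permutation p = 0.114, adjusted p = 0.183). The ratio of Itgam to Itgal differed by -0.04 between groups whose mice ranged from 1.45 to 3.61 (exact permutation p = 0.971, full lengths). Itgax, another alpha chain that pairs with Itgb2 and lies 11055 bases from Itgam, had 6, 6, 9 and 8 counts in sham mice and 1646, 354, 1145 and 1060 counts in BCAS mice 1 to 4. Its log2 fold change of 6.92 (SE 0.51, edgeR adjusted p = 0.00126) was larger than that of any other adhesion gene tested. Itgax had under 10 counts in every sham library and so passed the filter through its BCAS counts alone.

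**Figure D2:**
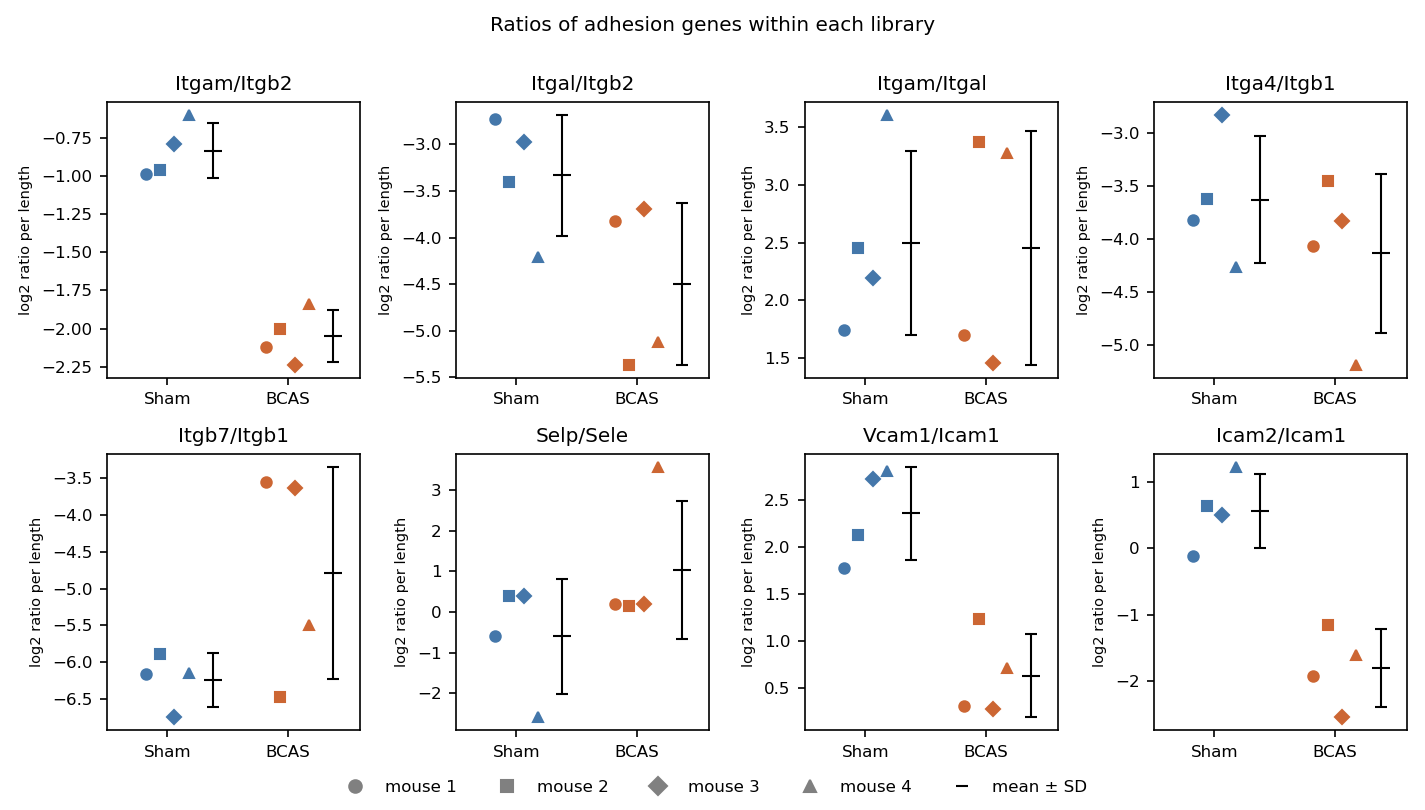
Log2 ratio per length of 8 pairs of adhesion genes in each mouse, with group mean ± SD. Lengths are all exon bases, and axes differ between panels. The BCAS mice lie below every sham mouse for Itgam/Itgb2, Vcam1/Icam1 and Icam2/Icam1, and the other 5 ratios overlap.

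Both partner chains of Itga4 were called higher. Itgb1, which completes VLA-4 and pairs with many other alpha chains, went from 82.3 ± 0.955 to 199.4 ± 74.9 CPM (SD, n = 4 each; log2 fold change 1.28, SE 0.24, edgeR adjusted p = 0.00701). Itgb7, whose product joins that of Itga4 in the gut homing receptor for MAdCAM-1, had 13, 14, 8 and 12 counts in sham mice and 386, 16, 214 and 48 counts in BCAS mice 1 to 4. Its log2 fold change was 3.51 (SE 0.86, edgeR adjusted p = 0.0181), and the groups overlapped at BCAS mouse 2. The log2 fold change was 2.85 without BCAS mouse 1, and the edgeR adjusted p was between 0.051 and 0.0551 without sham mouse 1, 2 or 4. The call was also lost with limma-voom (log2 fold change 2.75, adjusted p = 0.132) and when edgeR tested against a log2 fold change of 1 (adjusted p = 0.0912). The ratio of Itga4 to Itgb1 differed by -0.50 log2 units and that of Itgb7 to Itgb1 by 1.45, both with overlap (exact permutation adjusted p = 0.424 and 0.183). Madcam1 had 2 to 6 counts in sham and 7 to 12 counts in BCAS libraries and was not tested.

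Around the members, 48 other genes of the adhesion cascade in 4 lists were examined, of which 42 were tested, 19 were called higher, where 11% of all tested genes were, and 0 lower, with a median log2 fold change of 0.77. Of the 19, Itgax, Itgae and Cytip had under 10 counts in every sham library, so they could be tested only because their BCAS counts were high, and their calls add no support. Itgb7, with 8 counts in sham mouse 3, and Fut4, down to 0.121 CPM in sham mice, also needed BCAS libraries to pass the filter. Their calls add no support either. No test was made between the lists. Of 12 partner chains and other ligands, 8 were tested and 6 called higher (median 2.64). Besides Itgax these included Cd44, the hyaluronan receptor, at 4.21 (SE 0.49, edgeR adjusted p = 0.00184) and Itgae, the alpha chain that pairs with Itgb7, at 4.11 (SE 0.67, edgeR adjusted p = 0.00438), while Icam4 could not be measured, because 100% of its exon bases lie under a gene on the opposite strand and pairs there stay unassigned. All 10 genes of integrin activation, the machinery that switches integrins to the binding state from inside the cell, were tested and 7 were called higher (median 2.55). The largest were Cytip, a regulator of LFA-1 binding, at 4.69 (SE 0.91, edgeR adjusted p = 0.00795), the adaptor gene Fyb at 4.08 (SE 0.50, edgeR adjusted p = 0.00198) and Vav1, a signalling gene of blood cells, at 3.61 (SE 0.46, edgeR adjusted p = 0.00212).

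Among 14 genes that make or carry the sugars selectins bind, 12 were tested, 4 were called higher and 0 lower, and the median was 0.34. The largest were Fut4, a fucosyltransferase, at 2.67 (SE 0.75, edgeR adjusted p = 0.0279, lost without sham mouse 1, 2 or 4 or BCAS mouse 3 at 0.0657 to 0.0802), Gcnt1, which starts the branched glycans of PSGL-1, at 2.64 (SE 0.48, edgeR adjusted p = 0.0062, 2.0 without BCAS mouse 1) and B4galt1, a galactosyltransferase, at 2.40 (SE 0.36, edgeR adjusted p = 0.00331). All 12 genes of transendothelial migration, the step through the vessel wall, were tested. Of these 12, 2 were called higher (median 0.49), a count near the 11% of all tested genes. These were Msn, which encodes moesin and is made by leukocytes and endothelium alike, at 2.73 (SE 0.38, edgeR adjusted p = 0.00271) and F11r, which encodes the junction protein JAM-A, a ligand of LFA-1, at 2.50 (SE 0.33, edgeR adjusted p = 0.0024).

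**Figure D3:**
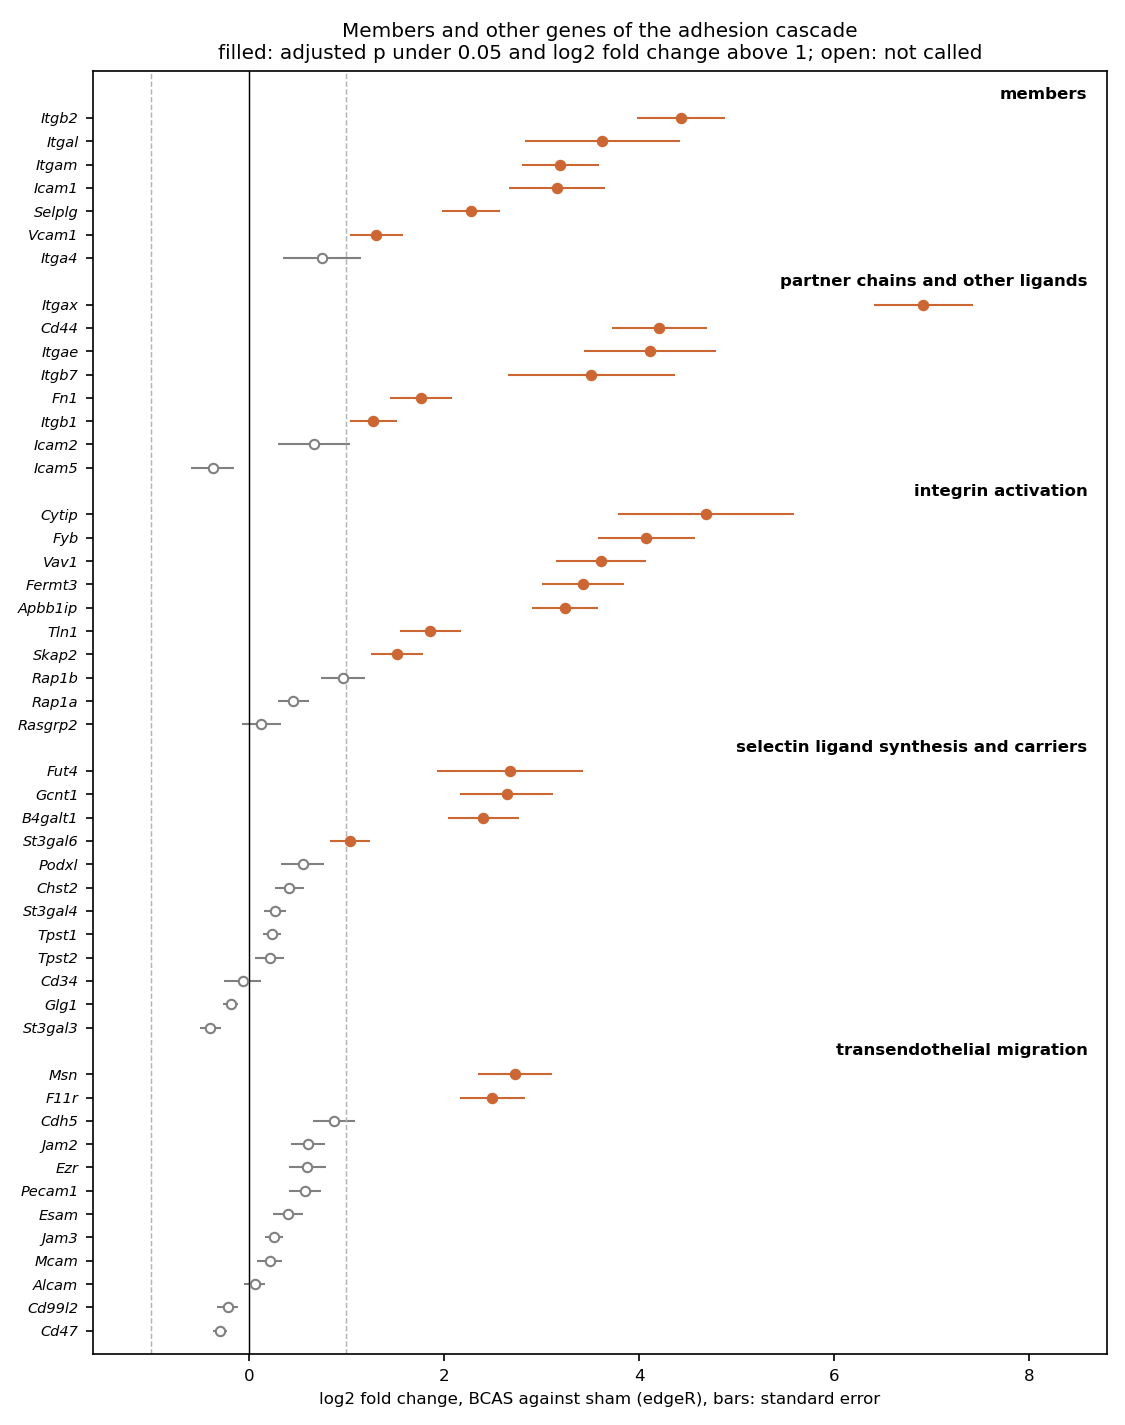
Log2 fold change of BCAS against sham mice with its standard error for the 7 tested members and the 42 tested genes of the 4 adhesion lists. Filled points passed the call (adjusted p under 0.05 and log2 fold change beyond 1). Filled points are 6 of 7 members, 6 of 8 partner chains and other ligands, 7 of 10 genes of integrin activation, 4 of 12 of selectin ligand synthesis and 2 of 12 of transendothelial migration, where 11% of all tested genes were called higher.

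Markers of several cell types moved with these genes. All 10 microglia markers were called higher (median log2 fold change 2.63), where 11% of all tested genes were. Their sum was 318 to 382 CPM in sham and 1288 to 4728 CPM in BCAS mice. Of 7 border macrophage markers 5 were called higher (median 1.78, sums 17.3 to 21.3 against 32.1 to 118 CPM), and of 7 fibroblast and meningeal markers 5 were (median 2.74, sums 130 to 162 against 235 to 838 CPM). Among markers of blood-borne cells few passed the filter: 2 of 3 tested monocyte markers (sums 21.9 to 29.7 against 32.8 to 146 CPM, of which Vcan made 24.3 CPM in sham and 39.8 CPM in BCAS mice on average), 3 of 3 T and NK cell markers (3.14 to 5.93 against 8.34 to 83.4 CPM) and 2 of 2 B cell markers (15.8 to 44.1 against 45.1 to 184 CPM, mostly Ighm at 32.9 and 86.4 CPM on average) were called higher. Vcan and Ighm were named after their values were seen. Ly6c2, Cd8a and Cd79b, which are among the genes called, had under 10 counts in every sham library and passed the filter through the BCAS mice alone, so these counts of calls add no support to the sums. Ccr2, Lck and the border macrophage markers Ms4a7 and Cbr2 also needed BCAS libraries to pass the filter. Their calls add no support either. The neutrophil list, of which only Csf3r was tested, summed to 5.61 to 10 CPM in sham and 55.5 to 217 CPM in BCAS mice, nearly all of it from this gene, which microglia also make and which was called higher (log2 fold change 4.07). The other neutrophil markers were scarce, and those named here were chosen after their values were seen. S100a9 was at 0 to 0.341 CPM in sham mice and 0.361 to 5.29 CPM in BCAS mice, without overlap. S100a8 (0.175 against 1.63 CPM on average), Mmp8 (0.0294 against 1.28 CPM) and Cxcr2 (0.0586 against 1.71 CPM) had higher means in BCAS mice with overlap between the groups. Ly6g, which defines neutrophils, had 0 counts in every library, and Camp was at most 0.164 CPM. The part of these cells in the members' difference was not tested.

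The vessel markers moved much less. None of 14 endothelial markers was called in edgeR, where 11% of all tested genes were called higher. In a list this short, 0 calls are near that share. The endothelial markers had a median log2 fold change of 0.39, and 3 had an edgeR adjusted p under 0.05. Their sums overlapped, with 477 to 605 CPM in sham and 566 to 838 CPM in BCAS mice. None of 7 tested mural cell markers was called (median 0.67, 3 with an adjusted p under 0.05), with sums of 295 to 355 and 348 to 521 CPM. Platelet markers, of which 2 of 7 were tested and 0 called, summed to 3.38 to 4.43 CPM in sham and 4.3 to 6.54 CPM in BCAS mice. Gp1bb, with 0 counts everywhere, adds nothing to this sum, since 92.9% of its exon bases are shared with other genes and pairs there stay unassigned. Erythrocyte markers summed to 59.3 to 80.8 CPM in sham and 94.5 to 124 CPM in BCAS mice, with 0 of 5 called and 2 of 5 with an adjusted p under 0.05. Of 8 astrocyte markers 2 were called higher (median 0.56, sums 4672 to 5397 against 6227 to 9349 CPM), and 6 had an adjusted p under 0.05. Of 8 pan-neuronal markers 1 was called lower (median -0.74), and 6 were lower with an adjusted p under 0.05.

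The members were also set beside the endothelial or the microglia markers within each library, which does not make either the only source of a gene. The measure is the log2 CPM of a gene minus the mean log2 CPM of the list, and 9 such relative levels were compared by exact permutation tests. It is not corrected for exon length, so only its difference between the groups can be read, not the level itself. Against the endothelial markers, Icam1 went from -3.15 ± 0.32 in sham to -0.58 ± 0.87 in BCAS mice (SD, n = 4 each), a difference of 2.57 (exact permutation p = 0.0286, adjusted p = 0.0429). Vcam1 went from 0.21 ± 0.22 to 1.07 ± 0.43, a difference of 0.86 with the same exact p and adjusted p. Neither group overlapped the other for these genes, whereas Selp (difference 2.21, exact permutation adjusted p = 0.0735) and Sele (difference 0.87, exact permutation adjusted p = 0.354) overlapped. At 0 to 3 sham counts these differences depend on the prior count, and with 0.5 in place of 2 they were 3.13 and 1.24. The difference of Sele was 0.44 without BCAS mouse 1, 0.46 without BCAS mouse 3 and 1.51 without BCAS mouse 4.

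On the leukocyte side the comparison was with the microglia markers. Itgb2 gained most on them, from -2.11 ± 0.16 to -0.43 ± 0.29, a difference of 1.68, and Itgam gained 0.47, from -2.22 ± 0.10 to -1.76 ± 0.16 (SD, n = 4 each). Selplg, at 0.01 ± 0.12 in sham mice, fell by 0.37 relative to the mean of these markers, and Itga4 fell by 1.83, from -0.40 ± 0.66 to -2.23 ± 0.90. These 4 differences had no overlap between the groups (exact permutation p = 0.0286, adjusted p = 0.0429 each). Itgal differed by 0.48 with overlap (exact permutation adjusted p = 0.486), and by 0.11 without BCAS mouse 3 and 0.86 without BCAS mouse 2. Selplg thus rose in CPM, yet by less than the mean of the microglia markers. Log2 fold changes of the single microglia markers ranged from 1.67 to 3.83. Those of Selplg, 2.28, and Itgam, 3.19, lie within this range, so the sign of their differences depends on the markers averaged. The permutation tests cover the spread between mice only.

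**Figure D4:**
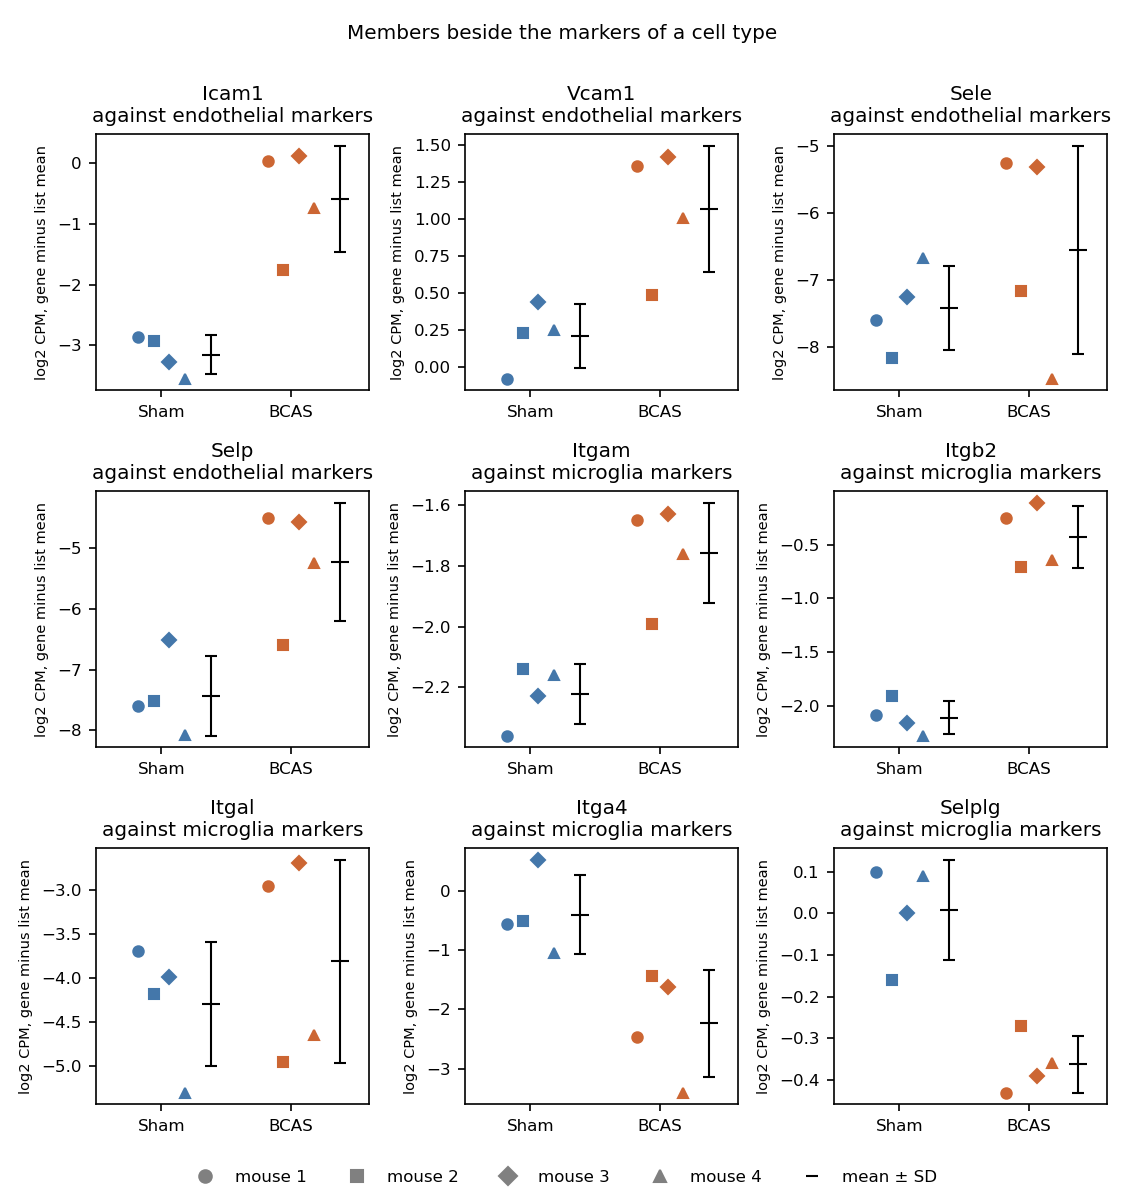
Log2 CPM of each gene minus the mean log2 CPM of the endothelial markers (Icam1, Vcam1, Sele, Selp) or of the microglia markers (Itgam, Itgb2, Itgal, Itga4, Selplg), by mouse, with group mean ± SD. Axes differ between panels. BCAS mice lie above every sham mouse for Icam1, Vcam1, Itgam and Itgb2 and below every sham mouse for Itga4 and Selplg.

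The BCAS mice varied widely, and the members did not all vary alike. BCAS mouse 1 was the highest in all 9 genes, BCAS mouse 2 the lowest in 7, and BCAS mouse 4 the lowest for Itga4 and Sele. Between mouse 1 and mouse 2 the CPM differed 13.9-fold for Itgal, 5.53-fold for Icam1, 2.9-fold for Vcam1 and 1.67-fold for Itga4, and no fold is given for Sele and Selp, which had 2 and 4 counts in mouse 2. BCAS mice 3 and 4 had similar sums of microglia markers (2256 and 2512 CPM) but different sums of T and NK cell markers (50 and 19.6 CPM). The CPM of mouse 3 divided by that of mouse 4 was 0.868 for Selplg, 0.963 for Itgam, 1.18 for Vcam1, 1.27 for Itgb2, 1.46 for Selp, 1.6 for Icam1, 3.07 for Itga4 and 3.45 for Itgal. The same quotient was 0.851 for the endothelial list, 0.898 for the microglia list, 1.2 for the neutrophil list, 1.52 for the B cell list, 1.69 for the border macrophage list, 1.93 for the monocyte list, 2.13 for the fibroblast and meningeal list and 2.55 for the T and NK cell list, so that the lists of several cell types were higher in mouse 3. These are descriptions of single mice, and no test was made of them.

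**Figure D5:**
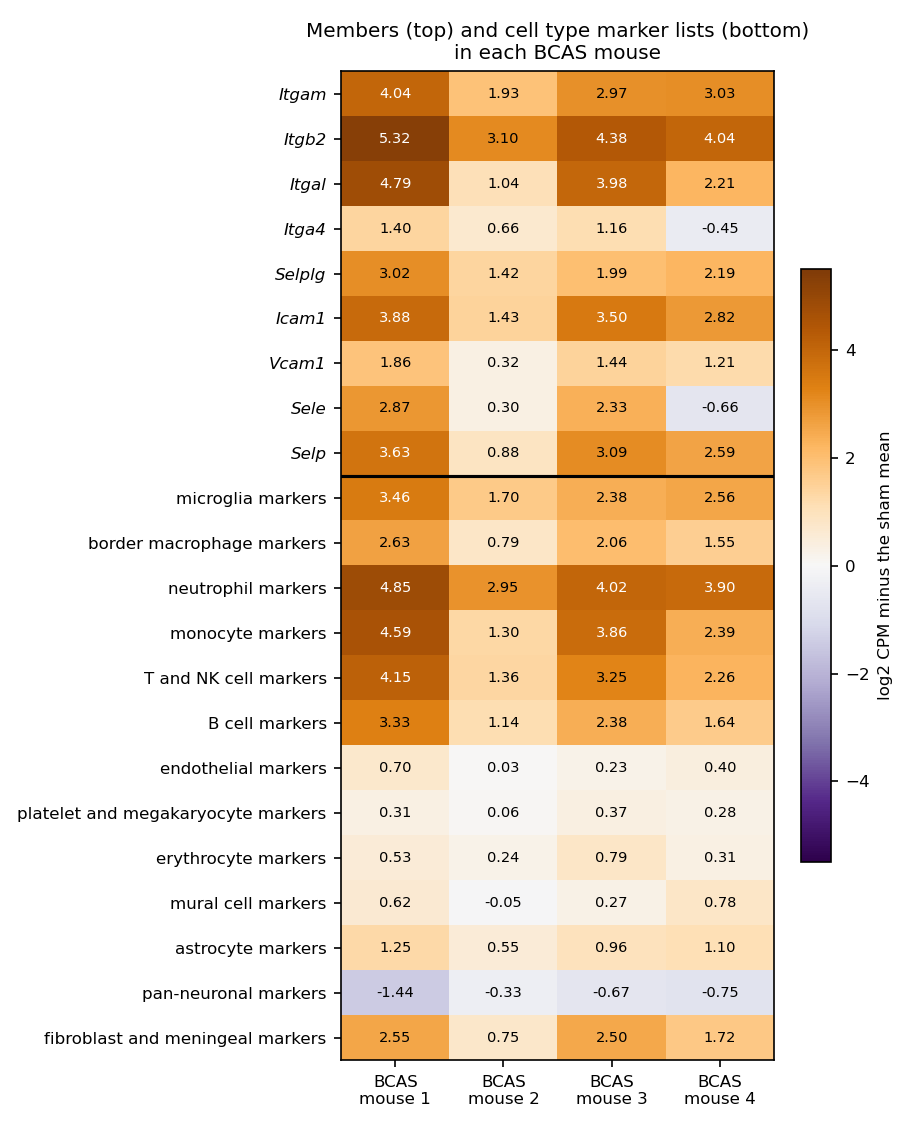
Log2 CPM minus the sham mean in each BCAS mouse, for the 9 genes (top) and for the mean over the tested genes of each of the 13 marker lists (bottom, Csf3r alone for neutrophils), on a diverging colour scale with the values printed. The monocyte, T and NK cell and B cell rows average 3, 3 and 2 tested genes. Some of these passed the filter only through their BCAS counts. Itgal falls from 4.79 in mouse 1 to 1.04 in mouse 2, whereas Vcam1 falls from 1.86 to 0.32, and the endothelial list stays between 0.03 and 0.70.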

How the data were processed

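RNA-seq of right cerebral cortex from 4 sham and 4 BCAS mice was used. The authors aligned paired reads to mm10 with HISAT2 and deposited counts of read pairs per gene, not normalized. The submitters' processing notes name FastQC, Trim Galore, SAMtools 1.9, featureCounts 1.6.3 and DESeq2 1.16.1, and the study's methods name RefSeq genes, whereas the header of each table names featureCounts 2.0.1 and GENCODE vM20. The recorded call had no strand option and no option for pairs on more than 1 gene, which stay unassigned. Whether blood was removed before RNA extraction is not given in the sources used here. Totals were 16759364 to 21794435 counts, which sets the precision of scarce genes. Symbols came from a reference table (54723 of 54752 genes matched), and coordinates from the tables. Cd99 was not analysed here.

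Counts were fitted in edgeR 4.0.16 (R 4.3.3) with TMM factors, filterByExpr (minimum count 10, minimum total 15) and the quasi-likelihood test of BCAS against sham without covariates, with Benjamini-Hochberg adjustment over 17136 genes. The p-values measure the spread between mice. Calls required a log2 fold change beyond 1 in either direction besides an adjusted p under 0.05. Standard errors were derived from each fold change and the F statistic of its test. Log2 CPM used a prior count of 2, ratios used counts plus 1, and TPM used the exon lengths in the tables. For ratios and relative levels the exact permutation test (two-sided, all 70 arrangements, scipy 1.17.1) was used. The members, the 4 adhesion lists and the 13 marker lists were chosen with earlier results of these data known. Named were all members, the partner genes Itgb1, Itgb7, Itgax, Icam2 and Madcam1 (another is not reported here), and in each adhesion list the 3 called genes with the largest positive and negative log2 fold changes. Single markers are named where they are at or near 0 or, as Csf3r, were chosen after their values were seen. Alternatives were other scalings, filters and thresholds, DESeq2 1.42.0, limma 3.58.1, a replicate block and leaving out each mouse. The fits were tested on simulated data. Figures used matplotlib 3.10.9 in Python 3.11.15.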

Additional observations from a re-analysis of the deposited data

Results flagged for a closer look

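The log2 ratio of Selp to Sele in BCAS mouse 4 stood apart from that of the other BCAS mice, at 3.57 against 0.137 to 0.2. The gap to the nearest mouse was 0.982 of the whole range, above Dixon's 95% critical value for 4 samples. BCAS mouse 4 had 17 counts of Selp and 0 counts of Sele, where 1 count was added to each. In all, 52 groups of 4 mice were tested in this way, and chance flags about 1 in 20 of them.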

How the results depend on the processing

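Over 21 named genes, 378 of 394 alternative values kept their direction and call, 16 kept the direction but lost the call and 0 reversed. The alternative with an adjusted p alone as the threshold reuses the main fit, so no called gene could change there. Among the members the lost calls were Itgal with limma-voom (log2 fold change 3.12, adjusted p = 0.0884) and Itgal and Vcam1 when edgeR tested against a log2 fold change of 1 (adjusted p = 0.055 and 0.543). Members called higher were 5 with limma-voom, 4 when tested against a log2 fold change of 1, 7 with no filter and 6 to 7 without each mouse (the added gene is Selp, which passed the filter through its BCAS counts), and they were 6 under each other alternative. With an adjusted p alone as the threshold, 2 pathway genes were called lower instead of 0 (St3gal3 and Cd47, chosen after their values were seen), and 5490 of all genes were called instead of 2097. Tested against a log2 fold change of 1, pathway genes called higher were 12 instead of 19 and all genes called 744. With at least 10 counts required in every library, Itgax, Itgae, Cytip, Fut4 and Itgb7 were not tested, and pathway genes called higher were 14 and all genes called 1577. With limma-voom they were 16 and 1924. Without each mouse, pathway genes called higher ranged from 16 to 22 and all genes called from 1644 to 2967. Mice with the same replicate number did not deviate together across genes (correlations -0.0455, -0.103, -0.00821 and 0.00126). What the number stands for is not given in the sources used here, and whether such mice shared a batch was not tested. With the replicate block 6 members, 17 pathway genes and 1809 of all genes were called, and Itgb7 was not (log2 fold change 2.91, edgeR adjusted p = 0.0541). The 9 relative levels kept their direction in 81 of 81 alternatives. The differences in the 8 ratios moved by less than the spread between mice in 72 of 72 alternatives (another length cannot move them), but Itgam/Itgal changed sign in 3 of 9 (-0.35 to 0.33), while the other 7 ratios kept theirs. The cause of these changes was not tested. Sele and Selp were too scarce for the filter at this depth, so that differences in them under about 3 counts a library could not be seen.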
